A study of Mus musculus with 6 samples.

Results

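The 10 genes of glutathione breakdown and the gamma-glutamyl cycle are followed here in skeletal muscle stem cells of old and young mice. They were chosen by symbol, and all 10 (Chac1, Chac2, Ggct, Oplah, Ggt5, Ggt7, Dpep1, Anpep, Lap3 and Cndp2) were found among the 12067 genes of the table. The cells were satellite cells, the resident stem cells of muscle, taken from limb muscles of male C57BL/6 mice by sorting for absence of CD45, CD31 and Sca1 and presence of VCAM. Sorted cells were stained with 5 uM ThiolTracker Violet, which labels reduced thiols, chiefly glutathione (GSH), and went through a further sort. Old GSH-low and old GSH-high cells came from mice aged 23 months, with 2 libraries each and 2 animals pooled per library. Young cells came from mice aged 4 months, with 2 libraries of 1 animal each, and all of them were kept; the design text describes nearly all young cells as GSH-high. Whether the old fractions came from the same pools is not given in the sources used here.

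Glutathione is a tripeptide of glutamate, cysteine and glycine and the main thiol of the cell. It is broken down by 2 routes. Inside the cell, the ChaC enzymes cut it to 5-oxoproline and cysteinylglycine, gamma-glutamylcyclotransferase (Ggct) releases 5-oxoproline from gamma-glutamyl amino acids, and 5-oxoprolinase (Oplah) turns 5-oxoproline back into glutamate. At the cell surface, gamma-glutamyltransferases remove the glutamate of exported glutathione, and peptidases split the remaining cysteinylglycine so that its amino acids can be taken up again.

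Promoter windows are shown for the 2 members found to hold a searched motif and for Dpep1, a member that rose in both old fractions against young, and Lap3, the only tested member called lower in a comparison. RefSeq windows (GRCm38.p6) run from 250 bases before to 50 bases after the start in RefSeq and were matched by symbol. The gene positions printed further below are from GENCODE, and their starts can differ. The windows of Anpep (chr7:79848161-79848460) and Ggt7 (chr2:155514797-155515096) lie inside those positions, away from the printed start. Those of 7 of the 10 members are reported here, and Cndp2 was left out of this search. Capitals mark matches on either strand to TGATGNAA, the C/EBP-ATF element bound by ATF4, or to TGACNNNGC, the core of the antioxidant response element. The windows are those of Chac1 (chr2:119350992-119351291, plus strand), Ggct (chr6:54992818-54993117, minus strand), Dpep1 (chr8:123185985-123186284, plus strand) and Lap3 (chr5:45493124-45493423, plus strand).
Chac1: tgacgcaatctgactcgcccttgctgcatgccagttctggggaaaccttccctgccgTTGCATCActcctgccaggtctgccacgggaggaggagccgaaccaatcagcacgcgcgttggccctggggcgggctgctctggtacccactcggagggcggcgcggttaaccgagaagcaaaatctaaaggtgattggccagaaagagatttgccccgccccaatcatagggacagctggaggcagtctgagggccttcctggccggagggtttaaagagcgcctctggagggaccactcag
Ggct: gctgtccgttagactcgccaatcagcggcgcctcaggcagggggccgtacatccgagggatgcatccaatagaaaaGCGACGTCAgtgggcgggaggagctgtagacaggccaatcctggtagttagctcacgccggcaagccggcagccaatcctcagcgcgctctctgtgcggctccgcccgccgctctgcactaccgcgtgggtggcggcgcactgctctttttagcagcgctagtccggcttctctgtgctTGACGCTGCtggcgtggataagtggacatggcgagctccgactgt
Dpep1: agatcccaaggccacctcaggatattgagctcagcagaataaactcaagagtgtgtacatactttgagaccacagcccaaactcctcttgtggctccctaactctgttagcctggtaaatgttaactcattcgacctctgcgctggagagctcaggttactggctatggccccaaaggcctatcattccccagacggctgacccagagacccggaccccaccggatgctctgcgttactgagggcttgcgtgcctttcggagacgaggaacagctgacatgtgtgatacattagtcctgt
Lap3: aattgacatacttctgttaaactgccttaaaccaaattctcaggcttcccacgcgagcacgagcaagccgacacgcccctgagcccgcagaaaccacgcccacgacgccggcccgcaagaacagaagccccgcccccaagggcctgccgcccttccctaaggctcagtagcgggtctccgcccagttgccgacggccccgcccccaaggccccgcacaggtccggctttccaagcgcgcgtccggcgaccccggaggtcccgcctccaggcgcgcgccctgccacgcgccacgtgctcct
The Chac1 window held 1 match to the ATF4 element, read on the opposite strand and beginning 193 bases upstream of the start, and 3.97% of 32851 RefSeq windows hold that motif. The Ggct window held 2 matches to the antioxidant core, beginning 174 bases upstream of the RefSeq start and at base 6 counted from it, and 12.4% of windows hold that motif. Neither motif was found in the windows of Dpep1, Lap3, Anpep, Ggt7 or Chac2. For Anpep and Ggt7 this covers the RefSeq start only. The matches are of letters and do not show that a factor binds there.

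Levels are RPKM, reads scaled by exon length and by the size of the library, as the authors deposited them. The old GSH-low libraries held 50.72 M and 47.01 M reads recovered from these values, the old GSH-high libraries 68.81 M and 60.77 M, and the young libraries 63.13 M and 60.07 M. Genes with at least 1 RPKM in 2 or more libraries were tested with limma-trend on log2(RPKM + 1), and a gene was called at an adjusted p under 0.05 over the 10609 genes tested. Of the members, 9 passed this filter. Ggt5 did not, and Anpep passed only through its 2 old GSH-low libraries, so that its presence among the tested genes depends on the group where it was high. All 10 satellite cell markers were measured with reads in every library, and their summed level ran from 2533 to 2699 RPKM in old GSH-low cells, 2971 to 3125 in old GSH-high cells and 3108 to 3289 in young. Sdc4 and Myod1 carried most of that sum. Sdc4 was lowest in old GSH-low (1463 and 1336 RPKM, 1633 and 1585 in old GSH-high, 1954 and 1741 in young). Pax7 was highest there (11.2 and 12.6, 8.09 and 8.65, 7.93 and 7.64). In old GSH-low against old GSH-high 1 of the 10 was called higher and 0 lower. Against young, 0 and 2 were in old GSH-high, and 1 and 3 in old GSH-low. Of all genes tested, 5.38%, 28.8% and 36.8% were called in these comparisons. The table gives gene sums for sorted populations, in which fewer cells of a type and less RNA per cell cannot be told apart. Every comparison rests on 2 libraries per group.

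**Figure D1:**
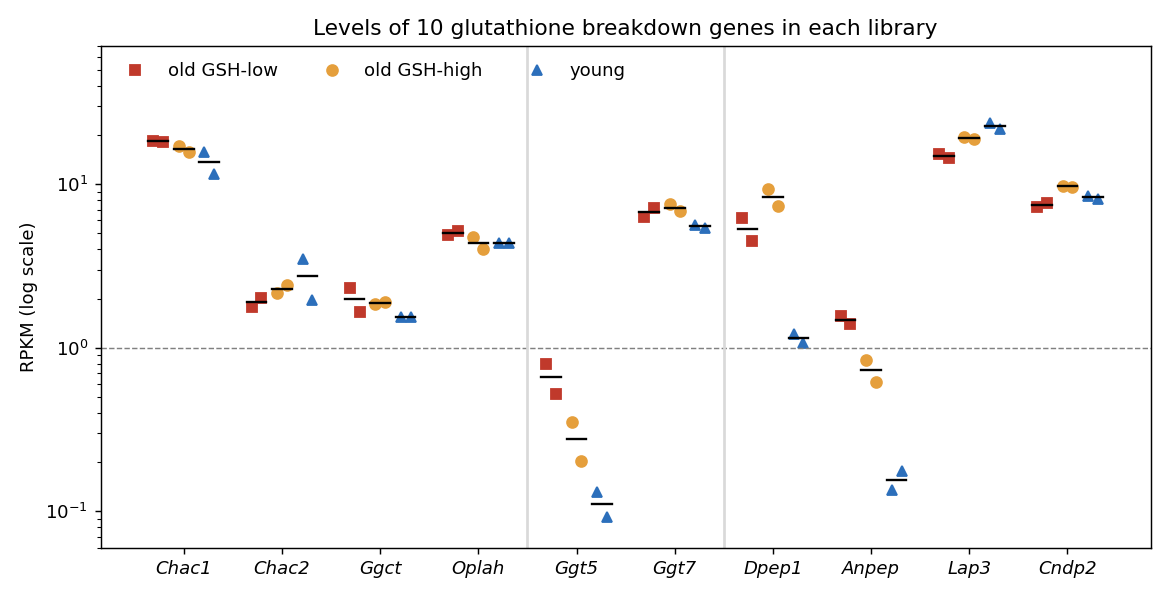
RPKM on a log scale (vertical axis) of the 10 genes in each library, with squares for old GSH-low, circles for old GSH-high, triangles for young, black bars for the mean of 2 libraries and a dashed line at 1 RPKM. The surface enzymes Ggt5, Dpep1 and Anpep lie lowest in young, while Lap3 lies highest in young at 21.8 and 23.8 RPKM.

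Chac1 (chr2:119351229-119354381, plus strand, GRCm38), the glutathione-cutting enzyme that the stress factors ATF4 and CHOP induce, was among the most abundant members. It had 18.3 and 18.2 RPKM in the old GSH-low libraries, 17.1 and 15.7 in old GSH-high cells and 15.8 and 11.5 in young. Both old GSH-low libraries lay above all others, and the ranges of old GSH-high and young overlapped. The log2 fold change of old GSH-low against young was 0.41 ± 0.13 (SE, adjusted p = 0.0394), a ratio of mean RPKM of 1.34. The call depended on single libraries. It was lost without old GSH-low replicate 1 (with adjusted p = 0.141) or 2 (0.121), without old GSH-high replicate 1 or 2 (0.0573 each, through the shared spread) and without young replicate 2 (log2 fold change 0.19, adjusted p = 0.117), and in the 4 libraries of the comparison alone (0.0571), within a range of 0.00203 to 0.141 over 15 alternatives. Old GSH-high against young did not pass (0.26 ± 0.13, adjusted p = 0.171), but passed without young replicate 1 (0.47, adjusted p = 0.00897; range of 15 alternatives 0.00897 to 0.707). Between the old fractions the difference was 0.15 with a 95% interval from -0.15 to 0.45.

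Chac2 (chr11:30976707-30986350, minus strand), its paralogue with the same reaction, is regarded as the constitutive form. It had 1.78 and 2.02 RPKM in old GSH-low cells, 2.18 and 2.42 in old GSH-high cells and 3.49 and 1.97 in young. The 2 young libraries stood farther apart than those of either old group, and no comparison passed (adjusted p = 0.621, 0.562 and 0.165 for old GSH-low against old GSH-high, old GSH-high against young and old GSH-low against young). Without young replicate 2 Chac2 was called lower in old GSH-high (-0.45 on the log2 scale, adjusted p = 0.0214) and in old GSH-low (-0.63, adjusted p = 0.00466) than in young, whereas without young replicate 1 the changes were 0.15 and -0.03; the adjusted p ran from 0.0214 to 0.822 and from 0.00466 to 0.846 over 15 alternatives each. The ratio of Chac1 to Chac2 was 10.3 and 9.02 in old GSH-low cells, 7.85 and 6.49 in old GSH-high cells and 4.53 and 5.86 in young, with no overlap between the groups. This ratio was not tested. For single genes, the groups did not overlap in 55.5%, 66.1% and 69.1% of all genes tested in the same 3 comparisons.

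Ggct (chr6:54982580-54992950, minus strand) and Oplah (chr15:76296601-76328015, minus strand), the enzymes that make and open 5-oxoproline, did not pass in any comparison. Ggct had 2.31 and 1.65 RPKM in old GSH-low cells, 1.85 and 1.90 in old GSH-high cells and 1.549 and 1.551 in young. All 4 old libraries lay above both young ones, with log2 fold changes of 0.22 ± 0.12 for old GSH-low (adjusted p = 0.184) and 0.17 ± 0.12 for old GSH-high (adjusted p = 0.309) against young. The authors' length for Ggct was 7745 bases, equal to all annotated exons together, while its longest annotated coding transcript has 3960 bases. Its RPKM is therefore low relative to a value per coding transcript. Ratios of RPKM are not touched by this, but the added 1 shrinks log2 fold changes more at a lower RPKM. The ratios of mean RPKM to young were 1.28 for old GSH-low and 1.21 for old GSH-high. The difference of Ggct between the old fractions had a 95% interval from -0.23 to 0.31. Oplah had 4.87 and 5.19 RPKM in old GSH-low cells, 4.74 and 4.04 in old GSH-high cells and 4.37 and 4.39 in young. Both old GSH-low libraries lay above the other 4. The difference of Oplah between old GSH-high and young had a 95% interval from -0.22 to 0.22, and those of old GSH-low against old GSH-high and against young each from -0.06 to 0.39. Of its exon bases, 681 are shared with exons of Exosc4 and Smpd5, and the strand of the libraries is not given in the sources used here.

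Ggt5 (chr10:75589340-75617200, plus strand), the surface gamma-glutamyltransferase that cleaves glutathione and leukotriene C4, was the least abundant member. It had 0.799 and 0.523 RPKM in old GSH-low cells, 0.351 and 0.202 in old GSH-high cells and 0.131 and 0.0920 in young, which are 243 and 149, 144 and 74, and 47 and 32 reads. The 3 groups did not overlap, in the order old GSH-low, old GSH-high, young. With no filter, limma-trend called Ggt5 higher in old GSH-low than in young (log2 fold change 0.57 ± 0.11, adjusted p = 0.00477), and the other comparisons did not pass (adjusted p = 0.105 for old GSH-low against old GSH-high and 0.222 for old GSH-high against young). On the recovered reads, limma-voom with no filter, chosen after the data were seen, gave 2.55 ± 0.40 (adjusted p = 0.000454) for old GSH-low against young, 1.27 ± 0.32 (adjusted p = 0.0384) for old GSH-low against old GSH-high and 1.28 ± 0.43 (adjusted p = 0.0389) for old GSH-high against young. The added 1 of the log2(RPKM + 1) scale shrinks changes at such levels, and the ratios of mean RPKM were 5.94, 2.39 and 2.49 in the same order. Ggt5 was not fitted under the other alternatives, which keep the filter.

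Ggt7 (chr2:155490379-155518237, minus strand), a family member whose own enzymatic activity is not established, was higher in both old fractions than in young libraries by its ranges. It had 6.34 and 7.17 RPKM in old GSH-low cells, 7.55 and 6.82 in old GSH-high cells and 5.67 and 5.42 in young. Every old library lay above both young ones, and the old fractions overlapped. Against young, old GSH-high rose by 0.32 ± 0.10 on the log2 scale (adjusted p = 0.0359), and old GSH-low missed the test (0.24 ± 0.10, adjusted p = 0.0787) except under library size only (0.30, adjusted p = 0.0389; range of 15 alternatives 0.0389 to 0.361). The call in old GSH-high was lost when any 1 of the 6 libraries was left out, with adjusted p = 0.0502 and 0.0501 for old GSH-low replicates 1 and 2, and likewise for old GSH-high replicate 1 (0.236) and 2 (0.0769) and young replicate 1 (0.0597) and 2 (0.0720), within a range of 0.0203 to 0.236 over 15 alternatives. It also ended in the 4 libraries of that comparison alone (0.0507) and with the replicate number as a block (0.0689). The difference between the old fractions had a 95% interval from -0.30 to 0.14. Of the exon bases of Ggt7, 197 are shared with Acss2.

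Dpep1 (chr8:123186242-123201812, plus strand), the membrane dipeptidase that splits cysteinylglycine and leukotriene D4, had the largest differences from young on the log2(RPKM + 1) scale of the 9 members tested. It had 6.21 and 4.48 RPKM in old GSH-low cells, 9.38 and 7.36 in old GSH-high cells and 1.22 and 1.07 in young. The old fractions did not overlap each other, and both lay well above young. Old GSH-high rose over young by 2.12 ± 0.15 on the log2 scale (adjusted p = 2.68e-05) and old GSH-low by 1.55 ± 0.15 (adjusted p = 0.000105), ratios of mean RPKM of 7.32 and 4.68. These calls held under all 15 alternatives, with log2 fold changes from 1.96 to 2.87 and from 1.36 to 2.21. Between the old fractions Dpep1 averaged 5.35 ± 1.23 RPKM in old GSH-low cells and 8.37 ± 1.43 in old GSH-high cells (SD, n = 2 each), a log2 fold change of -0.57 ± 0.15 that missed the test (adjusted p = 0.0731). That difference passed with the replicate number as a block (adjusted p = 0.0264), with limma-voom without a filter (-0.66, 0.0491) and when old GSH-low replicate 1 was left out (-0.77, 0.0414), and ranged from 0.0264 to 0.394 over 15 alternatives.

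Anpep (chr7:79821803-79861059, minus strand), aminopeptidase N (CD13), which cleaves cysteinylglycine and many other peptides at the surface, was highest in old GSH-low cells and lowest in young cells. It had 1.57 and 1.41 RPKM in old GSH-low (333 and 280 reads), 0.846 and 0.614 in old GSH-high (242 and 157 reads) and 0.135 and 0.177 in young (34 and 43 reads). No group overlapped another. Its log2 fold changes were 1.10 ± 0.11 for old GSH-low against young (adjusted p = 0.000118), 0.58 ± 0.11 for old GSH-high against young (adjusted p = 0.00505) and 0.53 ± 0.11 for old GSH-low against old GSH-high (adjusted p = 0.0261). Limma-voom without a filter on the reads, where no 1 is added to the values, gave log2 fold changes of 3.25 ± 0.32, 2.22 ± 0.33 and 1.04 ± 0.22 for the same comparisons. The ratios of mean RPKM were 9.53, 4.67 and 2.04. Both age calls held under the 14 alternatives that tested Anpep. Between the old fractions the call was lost without old GSH-low replicate 1 (with adjusted p = 0.166) or 2 (0.0827), without old GSH-high replicate 2 (0.208) and at a pseudocount of 0.1 (0.95, with adjusted p = 0.0834), within a range of 0.0144 to 0.208.

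**Figure D2:**
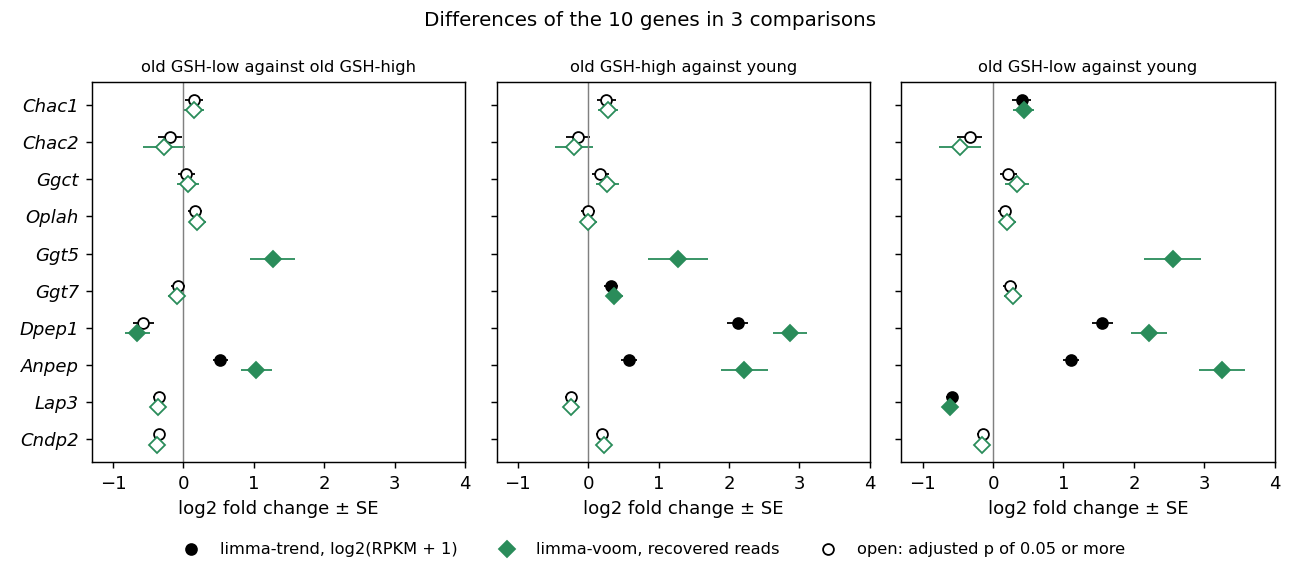
Log2 fold changes with SE (horizontal axes) of the 10 genes in the 3 comparisons, from limma-trend on log2(RPKM + 1) (black circles) and limma-voom without a filter on recovered reads (green diamonds), with filled symbols for an adjusted p under 0.05. Ggt5 has no black circle because it did not pass the filter, and for Anpep the diamonds lie farther from 0 than the circles, at 3.25 against 1.10 for old GSH-low against young.

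Summed markers of some other cell types had the same order of groups as a surface enzyme, and those of others did not. The summed level of 11 of 11 tenocyte (tendon cell) markers ran from 2699 to 3089 RPKM in old GSH-low cells, 645 to 815 in old GSH-high cells and 36.4 to 38.7 in young, the same order of groups as Anpep and Ggt5. For 13 of 13 markers of fibro-adipogenic progenitors, stromal cells of muscle, the sums were 1446 to 1595, 1100 to 1156 and 806 to 813 RPKM in that order of groups. Dcn and Gsn carried most of that sum, and between the old fractions 2 of the 13 were called higher and 2 lower in old GSH-low, with a median log2 fold change of -0.03. The sums of 7 of 11 macrophage and neutrophil markers were 41.7 to 48.5 RPKM in old GSH-low cells, 56.4 to 58.6 in old GSH-high cells and 8.51 to 8.99 in young, the order of Dpep1. Between the old fractions 0 of these 7 were called higher and 1 lower in old GSH-low, and the groups did not overlap for 3. Endothelial markers (12 of 12) followed another order, with 21.9 to 26.2 RPKM in old GSH-low cells, 97.8 to 98.4 in old GSH-high cells and 40.8 to 50.1 in young. No marker of these 4 lists had 0 reads in any library, and the tenocyte sum differed most between the groups among them. Myofibre markers (6 of 7) summed to 38.9 to 39.0 RPKM in old GSH-low cells, 15.4 to 16.4 in old GSH-high cells and 18.3 to 18.6 in young. The myofibre sum was highest in old GSH-low cells. Smooth muscle and pericyte markers (10 of 10) summed to 164 to 169 RPKM in old GSH-low cells, 145 to 166 in old GSH-high cells and 194 to 204 in young. Acta2, with 60.1 and 67.3 RPKM in old GSH-low cells, 56.7 and 77.6 in old GSH-high cells and 141 and 125 in young, was the largest term of that sum in young. Of the 9 tested, 5 were called higher and 0 lower in old GSH-low against old GSH-high, 6 higher and 2 lower in old GSH-high against young, and 5 higher and 2 lower in old GSH-low against young. Pdgfrb, a pericyte receptor, had the order of Anpep and Ggt5, with 14.2 and 11.5 RPKM in old GSH-low cells, 6.21 and 4.98 in old GSH-high cells and 1.31 and 1.95 in young. Fat cell markers (3 of 5) reached 1.52 to 2.30 RPKM in old GSH-low cells, 48.2 to 68.9 in old GSH-high cells and 0.107 to 0.173 in young, where Cfd, Cidec and Adipoq each had 0 reads in at least 1 library, listed there at 0.5 times the gene's lowest value elsewhere and summed as listed. The fat cell sum also had the order of Dpep1. Cd79a, a B-cell receptor chain, had 9.45 and 7.76 RPKM in old GSH-low cells, 1.63 and 1.73 in old GSH-high cells and 0.689 and 0.701 in young, the order of Anpep and Ggt5. The sort against CD45, CD31 and Sca1 is meant to remove blood cells, endothelial cells and fibro-adipogenic progenitors. Of the genes for these proteins, Ptprc (CD45) had 0.588 and 0.559 RPKM in old GSH-low cells, 0.0537 and 0.109 in old GSH-high cells and 0.00270 and 0.00279 in young. Pecam1 (CD31) had 1.41 and 0.877, 6.67 and 6.86, and 1.81 and 3.02 RPKM in these groups, and Ly6a (Sca1) had 6.55 and 4.93, 24.8 and 27.9, and 9.20 and 8.42. Ptprc was highest in old GSH-low cells, and Pecam1 and Ly6a in old GSH-high cells. The part of these cell types in the levels of Dpep1, Anpep and Ggt5 was not tested.

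**Figure D3:**
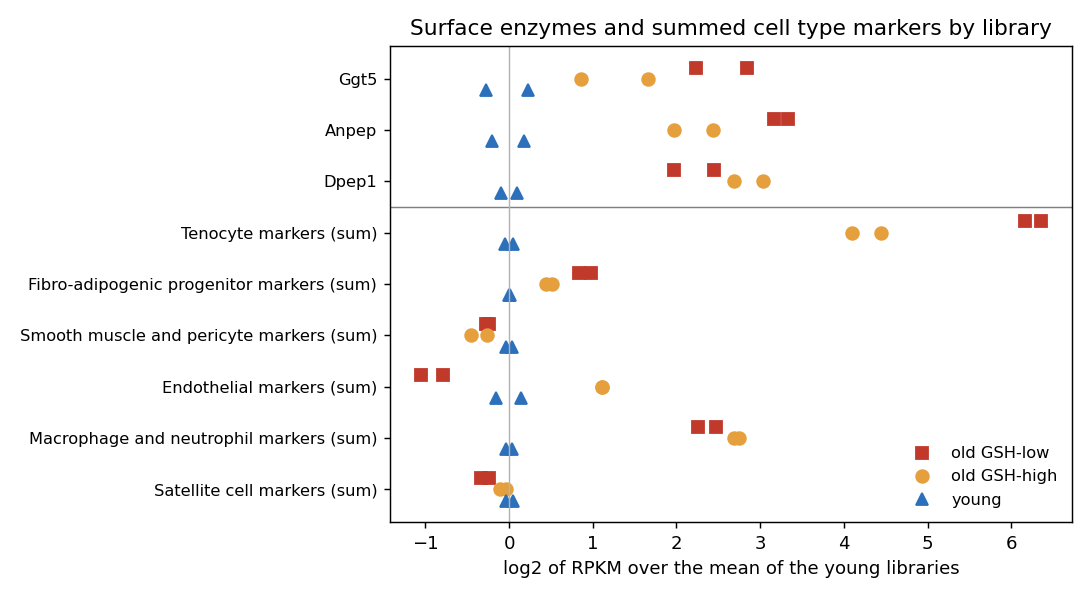
Log2 of the RPKM of Ggt5, Anpep and Dpep1 (upper rows) and of the summed RPKM of 6 marker lists (lower rows) over the mean of the young libraries (horizontal axis), 1 symbol per library. Ggt5, Anpep and the tenocyte and fibro-adipogenic progenitor sums are highest in old GSH-low. Dpep1 and the sums of macrophage and neutrophil and of endothelial markers are highest in old GSH-high. Fat cell markers are not drawn.

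Lap3 (chr5:45493374-45512691, plus strand), a cytosolic leucine aminopeptidase that also splits cysteinylglycine, was lower in the old fractions. It had 15.3 and 14.5 RPKM in old GSH-low cells, 19.4 and 19.0 in old GSH-high cells and 23.8 and 21.8 in young. The 3 groups did not overlap, with old GSH-low lowest and young highest. Old GSH-low fell by 0.58 ± 0.08 on the log2 scale against young (adjusted p = 0.000978), a ratio of mean RPKM of 0.653, and this held under all 15 alternatives (-0.64 to -0.52). Old GSH-high against young missed the test (-0.24 ± 0.08, adjusted p = 0.0653) and passed without young replicate 2 (-0.30, adjusted p = 0.0296; range of 15 alternatives 0.0296 to 0.254). Old GSH-low against old GSH-high also missed it (-0.34 ± 0.08, adjusted p = 0.0542), but passed without young replicate 1 or 2 (0.0258 each) and in the 4 old libraries alone (0.0267; range 0.0258 to 0.320).

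Cndp2, the cytosolic nonspecific dipeptidase that hydrolyses cysteinylglycine, had another order. It had 7.25 and 7.67 RPKM in old GSH-low cells, 9.78 and 9.62 in old GSH-high cells and 8.49 and 8.14 in young, so that young lay between the old fractions without overlap. No comparison passed: log2 fold changes were -0.34 ± 0.08 for old GSH-low against old GSH-high (adjusted p = 0.0542), 0.20 ± 0.08 for old GSH-high against young (adjusted p = 0.105) and -0.14 ± 0.08 for old GSH-low against young (adjusted p = 0.221). The difference between the old fractions passed without young replicate 1 or 2 (0.0333 each) and in the 4 old libraries alone (0.0337), and ranged from 0.0333 to 0.307 over 15 alternatives. The summed endothelial markers had the same order of groups as Cndp2, and their part in its level was not tested.

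**Figure D4:**
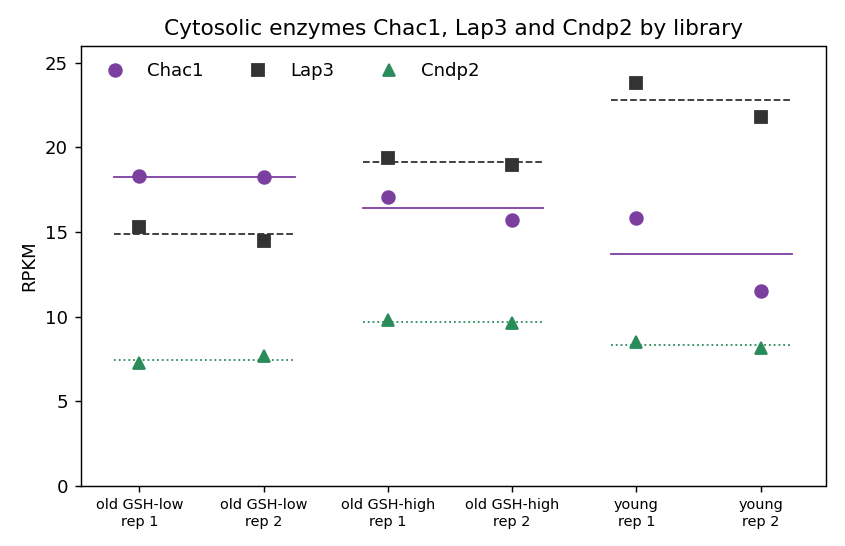
RPKM (vertical axis, from 0) of the cytosolic enzymes Chac1, Lap3 and Cndp2 in each library, with lines at the mean of each group. Chac1 lies above Lap3 in both old GSH-low libraries and below it in the other 4.

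Per exon length, the order of the members changed between groups. In old GSH-low, Chac1 (18.3 ± 0.0454 RPKM, SD, n = 2) was first and Lap3 (14.9 ± 0.598) second, whereas Lap3 was first in old GSH-high (19.2 ± 0.297) and in young (22.8 ± 1.40), and the 2 genes did not overlap in any group. The ratio of Chac1 to Lap3 was 1.20 and 1.26 in old GSH-low cells, 0.882 and 0.829 in old GSH-high cells and 0.666 and 0.529 in young. This pair was singled out after its values were seen. Dpep1 was 5th in old GSH-low, where its range overlapped that of Oplah, 4th in old GSH-high, where it overlapped that of Ggt7, and 8th in young. Anpep and Ggt5 were last in all 3 groups. In old GSH-low Ggct and Chac2 also overlapped, and the other neighbours in each order did not.

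Of the 9 members tested, 1 rose (Anpep) and 8 did not pass in old GSH-low against old GSH-high, where 5.38% of all genes tested were called, 3.69% higher and 1.69% lower. In old GSH-high against young 3 rose (Dpep1, Anpep and Ggt7) and 6 did not pass, against 28.8% of all genes (15.1% higher and 13.7% lower). In old GSH-low against young 3 rose (Dpep1, Anpep and Chac1), 1 fell (Lap3) and 5 did not pass, against 36.8% of all genes (18.1% higher and 18.7% lower). The members' counts are near what these shares give for 9 genes. Anpep is among the rises of every comparison, and it passed the filter only through its 2 old GSH-low libraries. The 2 age comparisons share the young libraries. Median log2 fold changes of the members were -0.08, 0.20 and 0.22 in these comparisons, beside -0.01, -0.00370 and -0.02 for all genes. Groups did not overlap for 7, 6 and 8 of the 9 members, beside 55.5%, 66.1% and 69.1% of all genes. With no filter, limma-voom called 3, 4 and 5 of the 10 members, where it called 6.36%, 31.4% and 36.7% of all genes, and limma-trend called 5.7%, 27.6% and 35.9%. Scaling by library size only moved the share of rises among called genes to 63.1% in old GSH-high against young and 60.1% in old GSH-low against young, where they were 52.4% and 49.2%, and every called member kept its direction.

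Among other gamma-glutamyl and small-peptide hydrolases, 17 of 24 were tested. In old GSH-high against young 3 rose and 4 fell, and in old GSH-low against young 3 rose and 4 fell, where 28.8% and 36.8% of all genes tested were called. Qpct is among the rises of both, and it passed the filter only through old libraries, where it was high. It averaged 1.56 ± 0.730 RPKM in old GSH-low cells, 1.06 ± 0.137 in old GSH-high cells and 0.241 ± 0.0197 in young. Enpep, aminopeptidase A of the cell surface, averaged 2.70 ± 0.164 RPKM in old GSH-low cells and 1.12 ± 0.177 in young (SD, n = 2 each; adjusted p = 0.000984). Lta4h, the cytosolic leukotriene A4 hydrolase and aminopeptidase, averaged 12.0 ± 0.236 RPKM in old GSH-high cells and 16.8 ± 0.945 in young (adjusted p = 0.00511), and Xpnpep1, a cytosolic aminopeptidase for peptides with proline, averaged 5.21 ± 0.0395 and 8.01 ± 0.596 (adjusted p = 0.00261). Npepl1, a relative of Lap3, averaged 18.3 ± 0.642 RPKM in old GSH-low cells and 12.3 ± 0.536 in young (adjusted p = 0.00125). Between the old fractions limma-trend called 0 of the 17, with 1 at an unadjusted p under 0.05, and limma-voom called 0.

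Most genes of glutathione synthesis and cysteine supply were called higher in the old fractions than in young. Of 10 tested, 7 rose and 1 fell in old GSH-high against young, and 6 rose and 2 fell in old GSH-low against young. Of all genes tested, 15.1% rose and 13.7% fell in the former, and 18.1% rose and 18.7% fell in the latter. Only the old cells were split by stain and pooled, so age cannot be told apart from the sort and the pooling. Gclc, the catalytic subunit of glutamate-cysteine ligase, averaged 54.1 ± 3.93 RPKM in old GSH-low cells, 58.7 ± 9.18 in old GSH-high cells and 38.9 ± 0.0240 in young, with adjusted p = 0.0128 for old GSH-low against young and 0.00609 for old GSH-high against young. Gclm, the regulatory subunit of that ligase, averaged 61.8 ± 3.51, 72.6 ± 1.87 and 51.6 ± 1.89 RPKM in that order, and was called higher in old GSH-low (adjusted p = 0.0417) and old GSH-high (0.00313) than in young. Gss, glutathione synthetase, averaged 4.99 ± 0.00573, 5.52 ± 0.201 and 6.40 ± 0.470 RPKM, and was called lower in old GSH-low than in young (adjusted p = 0.0289). Slc7a11, the cystine importer, averaged 0.366 ± 0.0187, 0.703 ± 0.0322 and 1.27 ± 0.128 RPKM in the same order, and fell by 0.73 ± 0.10 on the log2 scale in old GSH-low against young (adjusted p = 0.000690), where the ratio of mean RPKM was 0.288. It passed the filter only through its 2 young libraries, where it was high, and the added 1 shrinks its log2 change. Between the old fractions limma-trend called 0 of 10, with 3 at an unadjusted p under 0.05, and limma-voom called 1 of 11.

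Of 15 tested genes that take up or use the released dipeptides and amino acids, 2 rose and 3 fell in each age comparison, and 1 fell between the old fractions. Of all genes tested, 28.8% were called in old GSH-high against young, 36.8% in old GSH-low against young and 5.38% between the old fractions. The gene that fell between the old fractions was Cdo1, cysteine dioxygenase, which removes cysteine by oxidation. It averaged 3.37 ± 0.642 RPKM in old GSH-low cells, 6.74 ± 0.624 in old GSH-high cells and 1.51 ± 0.115 in young (SD, n = 2 each), with adjusted p = 0.00426 between the old fractions, 3.77e-05 for old GSH-high against young and 0.00131 for old GSH-low against young. Its order of groups was that of Dpep1. Slc15a2, a peptide transporter, averaged 2.51 ± 0.496 RPKM in old GSH-low cells, 1.38 ± 0.290 in old GSH-high cells and 3.03 ± 0.553 in young. It fell in old GSH-high against young (adjusted p = 0.00529) and did not pass in old GSH-low against young (adjusted p = 0.309) or between the old fractions (0.0681). Shmt1, which interconverts serine and glycine, averaged 13.6 ± 1.48 RPKM in old GSH-low cells and 26.5 ± 0.985 in young (adjusted p = 0.000136).

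ATF4 and its targets were set beside Chac1. Atf4 averaged 374 ± 10.2 RPKM in old GSH-low cells, 370.7 ± 2.69 in old GSH-high cells and 317 ± 26.8 in young, and did not pass in any comparison (adjusted p = 0.965 for old GSH-low against old GSH-high, 0.0983 for old GSH-high against young and 0.0730 for old GSH-low against young). Ddit3, which encodes CHOP, averaged 13.3 ± 0.637, 9.01 ± 0.593 and 9.53 ± 1.78 RPKM and rose in old GSH-low against old GSH-high (by 0.51 ± 0.12 on the log2 scale, adjusted p = 0.0464) and against young (0.45 ± 0.12, adjusted p = 0.0196). Trib3, another ATF4 and CHOP target, averaged 6.92 ± 0.456, 6.28 ± 0.556 and 5.28 ± 0.949 RPKM and did not pass (adjusted p = 0.641 for old GSH-low against old GSH-high, 0.209 for old GSH-high against young and 0.0545 for old GSH-low against young). Of 20 tested, 2 rose between the old fractions (Atf3 and Ddit3), 6 fell in old GSH-high against young, and 4 rose and 4 fell in old GSH-low against young. In these comparisons 5.38%, 28.8% and 36.8% of all genes tested were called. Psat1, a serine synthesis enzyme, fell by 0.97 ± 0.08 on the log2 scale in old GSH-low against young (adjusted p = 5.81e-05), the other direction from Chac1.

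For each member called at least 1 time, the 3 genes with the highest Pearson r over the 6 libraries on log2(RPKM + 1) were listed as a description. All share the same libraries and groups. Dpep1 was most like Plcl1 (r = 0.9995), Lcn2 (0.9982) and Trank1 (0.998), and 354 genes had r of at least 0.95 with it. Lcn2, lipocalin-2, had 3.55 and 2.77 RPKM in old GSH-low cells, 4.57 and 3.69 in old GSH-high cells and 0.941 and 0.837 in young. Anpep was most like Mutyh (0.9994), Syne1 (0.9987) and Lyn (0.998), among 449 genes at that level. Lap3 was most like Golga7 (0.9965), Pitpna (0.996) and Acot9 (0.9945), among 190. Chac1 was most like Kcnq1ot1 (0.9902), Pcdhga7 (0.9857) and Slc25a3 (0.9848), among 43, and Ggt7 like Il17c (0.9932), Taf1a (0.9928) and Tshz3 (0.9913), among 49.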

How the data were processed

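RNA was measured in 6 libraries of sorted muscle stem cells, grouped by title into old GSH-low, old GSH-high and young. Per the labels' protocols, oligo(dT)-primed cDNA was sequenced from 1 end with 150 bp reads. The submitters' processing notes name Trim Galore, STAR, featureCounts (Subread) and edgeR and the build mm10 (GRCm38), with no versions. The authors deposited RPKM values; how the table's genes were chosen is not given in the sources used here.

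Whole reads were recovered from the steps of the RPKM values for 12066 of 12067 genes, within 0.02 reads plus a relative 3e-07, using GENCODE M21 exon lengths to choose the unit; recovered lengths equalled the annotation for 98.5% of matched symbols and for all 10 members. The deposited table lists no 0, and 230 entries at 0.5 times the lowest remaining value of their gene were taken as replaced zeros, none of them in a member. Depth was 47.01 M to 68.81 M recovered reads, so a count of 0 allows up to 3 reads, or 0.0434 to 0.0623 CPM by library, for counting error only.

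Genes with RPKM of at least 1 in 2 libraries (10609; 1458 removed) were fitted as log2(RPKM + 1) with limma-trend (limma 3.58.1, R 4.3.3) with a mean for each of the 3 groups over 6 libraries (3 residual degrees of freedom) and two-sided Benjamini-Hochberg adjusted p-values. The scripts were tested on simulated data. Alternatives were a pseudocount of 0.1, no filter, a filter at 2 RPKM, median-of-ratios and library-size scaling, limma-voom on recovered reads, the 4 libraries alone, a replicate block and each library left out. Limma-voom without a filter was added after the data were seen. The members, lists and tests were chosen with earlier results of these data known. Named genes were all members, up to 3 called genes per pathway list and comparison in order of p, of which the text names part, Gclc, Gclm, Gss, Atf4, Ddit3 and Trib3 whatever their p (Ggt1 is not analysed here), and the 3 most similar genes per called member. The sum and counts of 1 of the 9 marker lists, that of lymphocytes, are not reported here. Promoter sequences are from RefSeq (GRCm38.p6). Tables and figures used Python 3.11.15, numpy 2.4.6, pandas 2.3.3 and matplotlib 3.10.9. Old libraries are pools of 2 animals, and young libraries are of 1 animal each. The p-values rest on a spread between 2 libraries per group that the 3 groups share. That spread is also drawn toward the spread of genes of similar level.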

Additional observations from a re-analysis of the deposited data

How the results depend on the processing

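Of 402 values of single members under the alternatives, 368 kept their direction where called and their side of the threshold, 18 lost a call and 16 gained one; none that was called changed sign. In old GSH-low against old GSH-high, 1 member was called, and the number was 0 with a pseudocount of 0.1 (4 at an unadjusted p under 0.05), 0 with the stricter filter, which no longer tests Anpep or Ggct (3 at an unadjusted p under 0.05), 3 in the 4 libraries alone, 2 with a replicate block, 3 with limma-voom without a filter and 0 to 3 without 1 replicate. It was 2 to 4 against 3 in old GSH-high against young, and 3 to 4 against 4 in old GSH-low against young, without 1 replicate. Genes called between the old fractions numbered 571, 864 in the 4 libraries alone, 479 with a replicate block and 312 to 863 without 1 replicate. In old GSH-high against young they numbered 3051 (1493 to 3802 without 1 replicate), and in old GSH-low against young 3901 (2068 to 4295). Where 1 library of a group was left out, the remaining one was taken to vary like the other groups. The labels do not say whether the replicate numbers pair the samples. Correlations of replicate differences over 10609 genes were 0.0695 between the old fractions, -0.263 between old GSH-low and young and -0.142 between old GSH-high and young. With 2 libraries per group these values cannot tell whether pools were shared. The block ended the Ggt7 call in old GSH-high against young (adjusted p = 0.0689) and added Dpep1 between the old fractions (0.0264), and it changed no other call of a member. The cause of these changes was not tested. With 32 to 243 reads, Ggt5 is the member whose values depth limits most.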
